A study of Rattus norvegicus with 13 samples.

Results

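The 35 genes described here mark lymphocytes and developing thymocytes in RNA from rat thyroid. They comprise 16 T cell genes, 5 genes of thymocytes and thymus, 7 B cell genes, 3 lymphoid chemokines and 4 genes of leukocytes, cytotoxic cells and regulatory T cells. The genes were chosen from a list of names after the array labelled as the first replicate of the KI-treated group, called KI 1 here, had been seen to be high in Cd3g. Of the 36174 gene names on the array, 32 matched a listed name directly. Themis, Ptcra and Cd79a were found through the description of the probe alone and so lie outside the rule, but are kept. Each gene was represented by its brightest probe, and its level is the log2 processed signal minus the 75th percentile of the same array.

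Thyroid RNA of male Wistar rats was hybridised to 13 one-colour arrays, of which 6 held KI-treated and 7 control animals. The mothers had received potassium iodide (KI) at 1 mg/kg/day, or saline in the control group, by gavage for 8 days from gestational day 9, and the thyroid of the progeny was taken on postnatal day 51. The treatment therefore reached these animals before birth, through the mother. The labels give no litter, and whether replicates shared a mother is not stated, so that the p-values measure only the spread between these samples.

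T cells recognise antigen through a receptor that signals through the CD3 chains (Cd3d, Cd3e, Cd3g) and the zeta chain (Cd247), to which the kinases Lck and Zap70 couple. T cells are made in the thymus, where immature thymocytes cut and join their receptor genes with the recombinase Rag1 and Rag2 and add bases with Dntt, terminal deoxynucleotidyl transferase. Mature T cells in lymph node, blood or inflamed tissue no longer use these enzymes. Lymph nodes and lymphoid infiltrates of the thyroid usually hold B cells too, marked by the antigen receptor chains Cd79a and Cd79b and by Ms4a1 (CD20). In rats the thymus, parathyroids and lymph nodes lie close to the thyroid.

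The probes are 60 bases long, and the following are shown because the comparison of T cell, thymocyte and B cell genes turns on them. They are written 5′ to 3′ as on the array, with positions in the rat build rn4 as the scanner files give them, and a stop codon that closes the open reading frame of the probe is in capitals. The annotation of exon and untranslated region at these positions was not analysed here.
Cd3g, chr8:47924376-47924435, minus strand: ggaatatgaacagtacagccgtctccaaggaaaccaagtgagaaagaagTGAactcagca
Cd3e, chr8:47950313-47950372, minus strand: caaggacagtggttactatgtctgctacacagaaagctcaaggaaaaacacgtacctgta
Lck, chr5:148713169-148715276, minus strand: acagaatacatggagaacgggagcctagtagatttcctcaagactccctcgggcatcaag
Dntt, chr1:246231457-246231516, plus strand: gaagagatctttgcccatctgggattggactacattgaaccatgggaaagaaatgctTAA
Cd79b, chr10:95703614-95703673, minus strand: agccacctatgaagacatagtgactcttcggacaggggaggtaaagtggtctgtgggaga
Ms4a1, chr1:213764136-213764195, minus strand: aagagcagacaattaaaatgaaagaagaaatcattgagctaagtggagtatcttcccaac
The Lck probe spans 2108 bases of the genome, so that it joins sequence from both sides of an intron, whereas the others lie in 1 stretch. The probes of Cd3g, Cd3d and Cd3e lay in the same region of chromosome 8, and those of Rag1 and Rag2 in the same region of chromosome 3.

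The tissue label was checked first. Of 10 thyroid follicle genes, 9 were well above background on all 13 arrays, among them Tg (thyroglobulin), Slc5a5, Pax8 and Foxe1, and Slc26a4 was not well above background on any array. The summed level of a list is the log2 of the added unlogged levels of its genes, so that the brightest genes weigh most. For the follicle genes it was 10.3 on KI 1 and between 10.2 and 10.9 on the other 12 arrays. Between 34840 and 41050 gene spots per array were well above background, and no gene spot was saturated. KI 1 shared its slide with KI 6 and control 2. Markers of parathyroid and C cells were present on all arrays, with Pth, Casr, Calca, Chga and Ret well above background on all 13.

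KI 1 stood apart from the other 12 arrays in its T cell genes. Of the 16 T cell genes, 15 were well above background on KI 1, against 4 to 8 on each of the other arrays, and 13 of these 15 stood at least 1 log2 unit over the median of the other arrays. Of the 24465 probes well above background on KI 1, 2.89% stood that far above. Since KI 1 was singled out for such a gene, these values are a description without a test. The median over the 16 genes of the level on KI 1 minus the median of the other arrays was 3.99 log2 units, and on the other arrays the same measure lay between -0.57 and 0.46. For 5 of the 15 genes measured on KI 1 no other array was well above background, so that this median is partly a difference from background. On KI 6 and control 2, which shared the slide of KI 1, the median was -0.23 and -0.28. Over the 7 T cell genes tested for KI the excess of KI 1 was 3.09, and it was 1.50 after normexp background correction and 1.94 with the deposited log2 values. Over the 4 T cell genes well above background on all 13 arrays it was 1.36. These differed widely, with Cd3d at 5.02, Il7r at 2.28, Cd4 at 0.44 and Cd28 at -0.25. All but Cd3d were read from probes of predicted transcripts.

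The CD3 chains include Cd3g, the gene for which KI 1 was singled out. Cd3g was at 2.96 on KI 1 and between -5.46 and -3.70 on the other 12 arrays, of which 5 were well above background. Cd3d was at 3.75 on KI 1 and between -1.64 and -0.92 elsewhere, with all 13 arrays well above background. No other array came near KI 1 for either gene, and the KI 1 level exceeded the highest of the others by 6.67 for Cd3g and by 4.67 for Cd3d. Cd3e was at -0.94 on KI 1 and was not well above background on any other array. Set against the floor of the other arrays, taken per array as the higher of the lowest signal well above background and the value of the probe itself, Cd3e was at least 13.97-fold higher on KI 1.

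The signalling partners of the receptor were also high on KI 1. The zeta chain Cd247 was at 1.85 on KI 1 and between -5.88 and -4.10 elsewhere, where KI 4 alone was well above background. The kinase Zap70 was at 0.62 on KI 1 and between -4.03 and -2.68 elsewhere, and the kinase Lck was at -1.23 on KI 1 and between -6.10 and -3.20 elsewhere. Cd8a, a chain of the co-receptor of cytotoxic T cells and of most thymocytes, was measured on KI 1 alone, at -0.79, which is at least 15.6-fold above the floor of the other arrays. Its partner chain Cd8b was at -1.59 on KI 1 and between -5.85 and -3.73 elsewhere. KI 1 was the highest array for both chains.

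The other surface receptors and adaptors of T cells gave a like order. The adhesion receptor Cd2, the homing receptor Ccr7 and the thymocyte adaptor Themis were well above background on KI 1 alone, at least 5.41-fold, 7.36-fold and 5.22-fold over the floor of the other arrays. Il7r, the interleukin-7 receptor that keeps thymocytes and naive T cells alive, was at -0.34 on KI 1 and between -3.04 and -2.05 elsewhere, with all 13 arrays well above background. Cd5, a receptor that dampens antigen signals, was measured on 1 array besides KI 1. It was at -3.02 on KI 1 and at -2.64 on KI 6, and was not well above background on the other 11 arrays. For Cd27 the brightest probe was not well above background on any array. Its second probe was well above background on KI 1 alone, at -1.29, against at most -4.88 on the others.

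Cd4 and Cd28 did not stand out on KI 1. Cd4, the co-receptor of helper T cells, which rat macrophages also carry, was at 1.43 on KI 1 and between 0.79 and 1.70 elsewhere. Cd28, a co-stimulatory receptor, was at 1.44 on KI 1 and between 1.14 and 2.38 elsewhere. Both levels come from a probe that the array design drew from a predicted transcript, and the probe from the curated transcript of the same gene read otherwise. The curated Cd4 probe was well above background on 6 arrays, with KI 1 at -3.65 and the others between -6.16 and -2.99. The curated Cd28 probe was not well above background on any array.

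**Figure D1:**
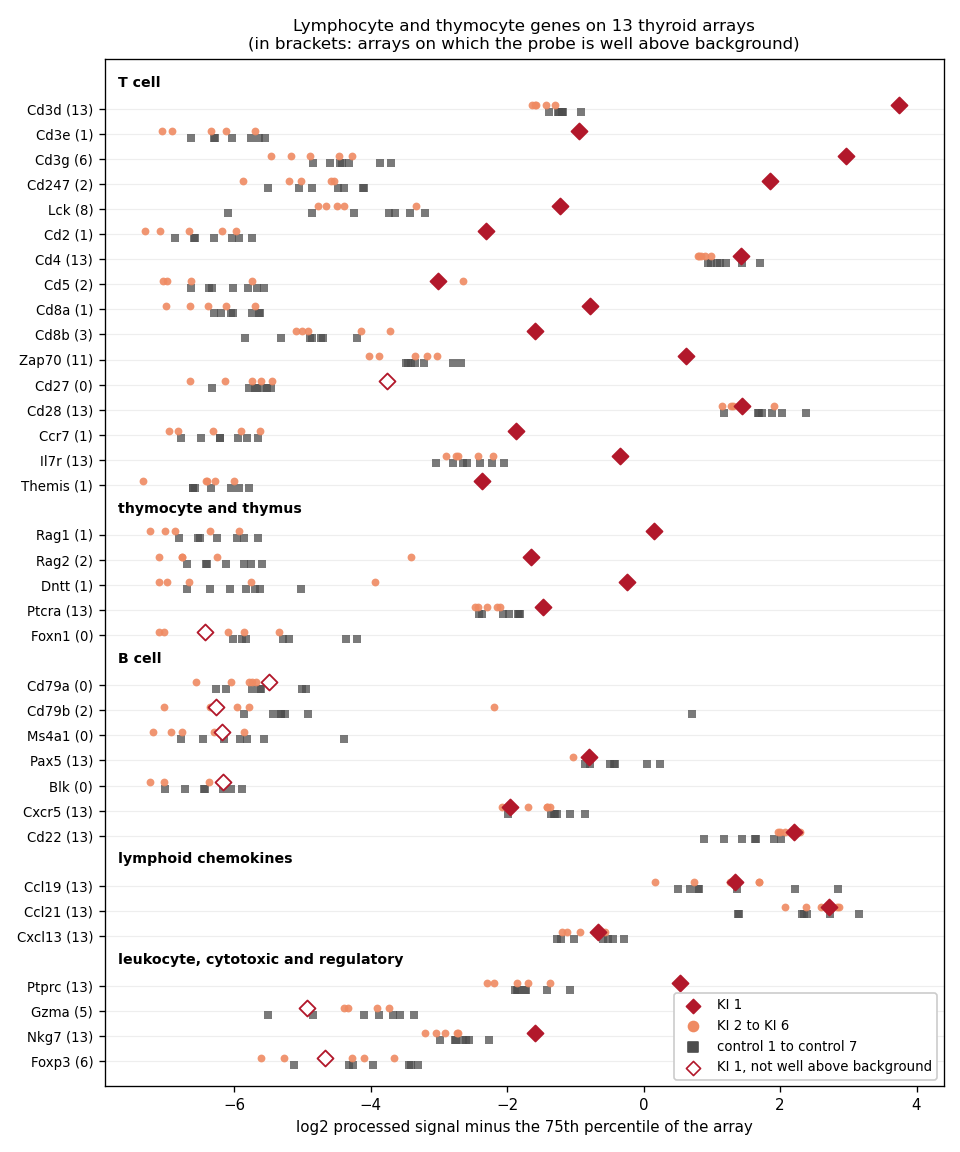
Level of each of the 35 genes on the 13 arrays, as log2 processed signal minus the 75th percentile of the array (horizontal axis), with KI 1 as a diamond, the other 5 KI-treated arrays as circles and the 7 controls as squares; the number in brackets counts arrays on which the probe is well above background, and an open diamond marks a KI 1 value that is not. KI 1 lies far to the right of the other arrays for most T cell genes and for Rag1, Rag2 and Dntt, and among the other arrays for the B cell genes and chemokines.

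Among the thymocyte genes, Rag1, Rag2 and Dntt were high on KI 1. Rag1 was at 0.15 on KI 1, where it was at least 29.9-fold above the floor of the other arrays, none of which was well above background. Dntt was at -0.25 on KI 1, at least 21.4-fold above that floor, and was also well above background on no other array. Rag2 was at -1.66 on KI 1 and at -3.42 on KI 5, and not well above background on the other 11 arrays. The recombinase pair and the transferase were therefore measured together on 1 of the 13 arrays.

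The remaining thymus genes differed from these. Ptcra, the surrogate alpha chain of the pre-T cell receptor, was at -1.48 on KI 1 and between -2.48 and -1.82 elsewhere, so that KI 1 was highest by 0.34 log2 units. Foxn1, the transcription factor of thymic epithelium, was not well above background on any array. Of the 35 genes, 7 were well above background on KI 1 and on no other array, all of them T cell or thymocyte genes. Among all 45598 gene probes 0.357% had that pattern, and the same share for the other arrays lay between 0.285% and 1.03%.

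The B cell genes were not raised on KI 1. Of the 7 genes, 0 stood at least 1 log2 unit above the median of the other arrays on KI 1, and the median difference was 0.05. Cd79a, Ms4a1 and the kinase Blk were not well above background on any array. Cd79b was not well above background on KI 1 either, and was measured on KI 4 at -2.19 and on control 4 at 0.71 only. Pax5, the transcription factor that fixes B cell identity, was at -0.80 on KI 1 and between -1.03 and 0.24 elsewhere, inside the range of the others. The follicle homing receptor Cxcr5 was at -1.96 on KI 1 and between -2.08 and -0.86 elsewhere.

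The chemokines that organise lymphoid tissue were present on all arrays. Ccl19 and Ccl21, which guide T cells and dendritic cells, and Cxcl13, which guides B cells to follicles, were well above background on all 13. On KI 1 Ccl19 was at 1.34, within the 0.17 to 2.84 of the others. Ccl21 was at 2.72, within 1.38 to 3.15, and Cxcl13 at -0.67, within -1.27 to -0.29. None of the chemokines placed KI 1 at the top of the arrays.

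Of the leukocyte genes, Ptprc and Nkg7 were highest on KI 1. Ptprc (CD45), carried by all white blood cells, was at 0.53 on KI 1 and between -2.30 and -1.08 elsewhere. Nkg7, of cytotoxic granules, was at -1.59 on KI 1 and between -3.20 and -2.26 elsewhere. Gzma (granzyme A) and Foxp3, the factor of regulatory T cells, were not well above background on KI 1 but were so on 5 and 6 other arrays.

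**Figure D2:**
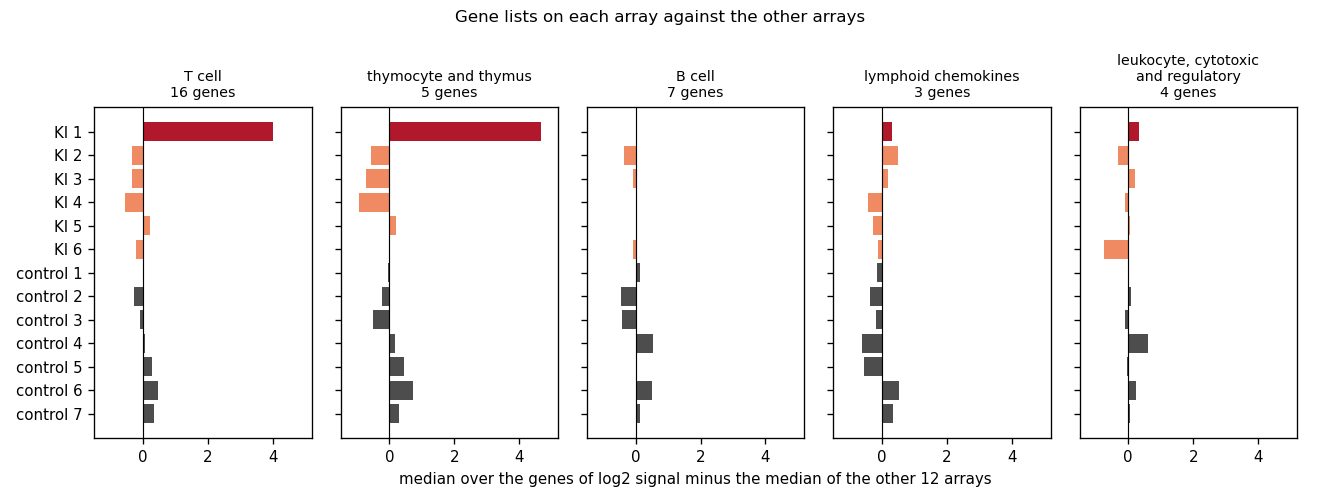
Median over the genes of each group of the log2 level on 1 array minus the median of the other 12 arrays (horizontal axis), for each of the 13 arrays (rows), with KI 1 in dark red, the other KI-treated arrays in orange and the controls in grey. KI 1 stands at 3.99 for the T cell genes and 4.67 for the thymocyte and thymus genes, both including genes at background on the other arrays, and at 0.05 for the B cell genes.

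Further lists of cell type genes were read in the same way on KI 1. Of 29 other T cell genes with a probe, 22 were well above background on KI 1, against 13 to 18 on each of the other arrays. Of these 22, 15 stood at least 1 log2 unit above the median of the other arrays. The adaptors Sit1 and Sh2d1a and the co-stimulatory receptor Icos were well above background on KI 1 and on no other array. Cd6, a receptor of T cells, was at 1.72 on KI 1 and between -2.83 and -1.60 elsewhere, and the adaptor Lat was at 0.94 and between -5.55 and -1.24 elsewhere. Lef1 and Tcf7, transcription factors of early T cells, were at 0.46 and 1.26 on KI 1 and at most -2.10 and -1.30 on the others.

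Of 12 other thymocyte and thymus genes, 11 were well above background on KI 1, against 7 to 10 on each of the other arrays. Of these 11, 5 stood at least 1 log2 unit above the median of the other arrays. The chemokine Ccl25 and the protease Prss16, both products of thymic epithelium, were at -0.16 and -0.87 on KI 1 and at most -4.78 and -4.12 on the others. Each was well above background on 1 other array. Psmb11, a proteasome subunit of cortical thymic epithelium, was at -1.81 on KI 1, inside the -2.94 to -1.72 of the others, with all 13 arrays well above background. The Notch ligand Dll4 was at -2.02, also inside the range of the others. Tbata, named for its expression in thymus, brain and testis, was at 1.25 on KI 1 and between -4.38 and -2.36 elsewhere, and the thymocyte chromatin factor Satb1 was at 3.57 and between 0.43 and 2.10 elsewhere. Aire, of medullary thymic epithelium, was not well above background on any array.

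Markers of lymph node venules and stroma were mostly at background on all arrays. Of 5 such genes with a probe, among them Glycam1 and Madcam1, 0 were well above background on KI 1 and 0 to 2 on each other array. Their summed level was -3.51 on KI 1 and between -4.12 and -2.34 on the others. At such low signal these genes cannot show whether lymph node differed on KI 1. Of 14 other B cell genes with a probe, 6 were well above background on KI 1, and 1 of these stood at least 1 log2 unit above the median of the others. That gene was Spib, at -2.99 on KI 1 and between -5.31 and -1.07 elsewhere, a factor that other immune cells also use. Of 9 natural killer and cytotoxic genes with a probe, Prf1 (perforin) alone was both well above background and at least 1 log2 unit above the median of the others on KI 1, and of 12 macrophage genes 0 were.

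Skeletal muscle and proliferation genes also differed on KI 1, and their part in the lymphocyte values was not tested. The 8 muscle genes were low on KI 1, with a median of -2.40 log2 units against the other arrays, and lower still on KI 4, at -3.58. KI 4 did not share the T cell pattern, at -0.57. The 10 proliferation genes had a median of 0.95 on KI 1, which KI 4 and control 3 matched with 1.04 and 0.97, without high T cell genes on either. Of the 3 parathyroid genes, Gcm2, a factor of parathyroid development, was highest on KI 1, at -1.85 against -4.68 to -2.21 on the others, and Pth and Casr were inside the range of the others. The summed level of blood genes was 7.26 on KI 1 and between 6.51 and 7.59 elsewhere. Fewer cells of a type and less RNA per cell cannot be told apart in such bulk samples.

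**Figure D3:**
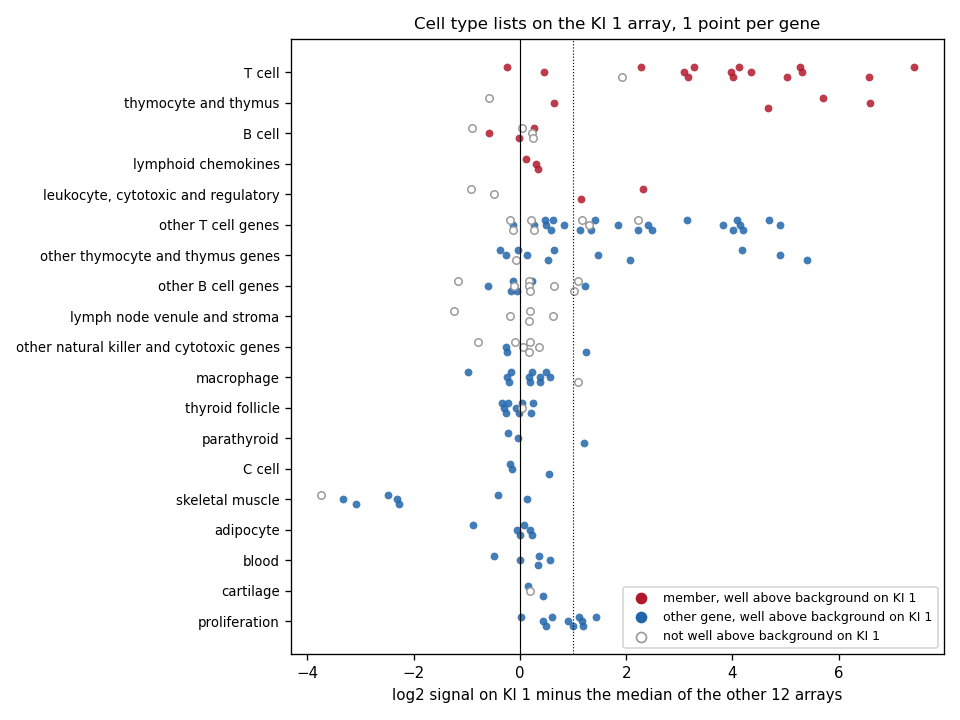
Level on KI 1 minus the median of the other 12 arrays, in log2 units (horizontal axis), for every gene of the cell type lists (rows), with 1 point per gene; filled points are well above background on KI 1, and the dotted line marks 1 log2 unit. T cell and thymocyte genes extend beyond 4 log2 units, the thyroid follicle genes lie around 0, and most skeletal muscle genes lie below -2.

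The genes with a tested probe were then ranked by their excess on KI 1. Genes well above background on fewer than 6 arrays were not tested and so not ranked. Among these were Cd247 and Rag1, which exceeded the highest of the other arrays by 5.95 and 5.81 log2 units. For both, the other arrays were mostly at background. Among 20712 gene symbols with a tested probe, Cd3g stood furthest above the highest of the other arrays, followed by a transcript of the T cell receptor beta chain at 5.55 log2 units and by Cd3d. A predicted relative of the proto-oncogene Myb came next at 4.29, then the uncharacterised LOC102556257 and LOC100912214 at 3.67 and 3.62. Tbata, Cd6 and Zap70 were also among the first 10, between 3.61 and 3.30. Of the 30 highest, 3 were among the 35 genes. The rest included further lymphocyte genes, among them another receptor beta transcript, Ptprcap, Lef1, Tcf7 and Lat. It also included uncharacterised transcripts and genes such as Zbtb24, Prrt4 and F2. KI 1 was not unusual in how many probes stood high. Of the 25717 tested probes, 1.3% stood at least 1 log2 unit above the median of the other arrays on KI 1. The same share was 0.677% to 4.16% on the others. KI 1 had the most probes that exceeded every other array by at least 2 log2 units, 37 against 2 to 18.

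The gene symbols outside the list whose levels followed Cd3g most closely over the 13 arrays had a Pearson correlation between 0.932 and 0.983, given as a description because KI 1 sets it. They included the T cell receptor beta transcript, LOC100912214, F2 (prothrombin), an unnamed transcript, Ptprcap, Zbtb24, the Myb relative, Agrp and an expressed sequence tag. Ptprcap encodes a partner of CD45 in lymphocytes. Over the 12 arrays without KI 1, the correlation with Cd3g was 0.64 for the receptor beta transcript and 0.67 for Ptprcap. For Zbtb24 and the Myb relative it was 0.02 and 0.03. It was 0.52 for both LOC100912214 and the unnamed transcript, 0.51 for Agrp, 0.35 for the expressed sequence tag and 0.32 for F2. Cd3g itself was well above background on 6 of the 13 arrays, KI 1 among them. The values without KI 1 thus rest largely on Cd3g levels near background.

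The design asks whether prenatal KI changed these genes in the thyroid. Of the 35 genes, 17 had a probe well above background on at least 6 arrays and were tested, and 0 passed an adjusted p of 0.05 in limma with Benjamini-Hochberg adjustment over all 25717 probes. Over all probes 0.0% passed. The smallest adjusted p among the 17 was 0.342, for Cd22. Without adjustment 3 of the 17 were under 0.05, namely Cd22, which was higher, and Pax5 and Cd28, which were lower. Over all probes 5.71% were under 0.05 with a higher mean after KI, and 7.01% with a lower one. The log2 change was above 0 for 8 of the 17 genes and below 0 for 9, where 39.3% of all probes were above 0 and 60.7% below. For 0 of the 17 were the groups free of overlap, beside 0.324% of probes with all KI-treated arrays below the controls and 0.257% with all above. The 18 genes not tested included Cd3e, Cd8a, Rag1 and Dntt, which were measured on KI 1 alone.

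The T cell genes depended on KI 1. Over the 7 tested T cell genes, the median log2 change of the KI-treated group against the control group was 0.35, beside -0.08 over all probes, and without KI 1 it was -0.31, beside -0.07. All 13 arrays gave Cd3d a lowest, median and highest level of -1.64, -1.51 and 3.75 in the KI-treated group and of -1.38, -1.20 and -0.92 in the control group. KI 1 was thus above every control, KI 2, KI 3, KI 4 and KI 6 were below every control, and KI 5 lay among the controls. The log2 change was 0.57 (SE 0.71, adjusted p = 0.677 in limma, n = 6 and 7), and the exact permutation test, two-sided over the 1716 ways to assign the arrays, gave p = 0.955. Without KI 1 it was -0.31 (SE 0.11, adjusted p = 0.537 in limma). The exact permutation test over 792 ways then gave p = 0.00253, not adjusted for the number of genes. KI 1 was left out after its high Cd3g had been seen. Every p without KI 1 is therefore a description of the remaining arrays and no test of KI.

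Cd3g followed Cd3d in this. KI-treated arrays ran from -5.46 through a median of -4.68 to 2.96, and controls from -4.85 through -4.42 to -3.70. The groups overlapped, and 3 arrays of each were well above background. The log2 change was 0.76 (SE 1.07, adjusted p = 0.707 in limma) with all arrays and -0.54 (SE 0.24, adjusted p = 0.537) without KI 1, for which the exact permutation test gave p = 0.911 and p = 0.0631. Zap70 went from 0.39 to -0.29, Lck from 0.35 to -0.16, Il7r from 0.31 to -0.06 and Ptprc from 0.17 to -0.24. The adjusted p of these 4 genes stayed at or above 0.602 in both fits.

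Without KI 1 all 7 tested T cell genes had a lower mean in the KI-treated group, as 60.1% of all tested probes did, while 39.9% were higher. Of all 17 genes, 15 were lower. Among the 7, Cd3d, Cd3g and Cd4 had an unadjusted p under 0.05 in limma without KI 1. Over all probes 4.87% were under it and lower, and 4.32% under it and higher. Since KI 1 was left out for its Cd3g, these counts are a description without a test. With all 13 arrays 1 of the 7, Cd28, was under 0.05 and lower, beside 7.01% of all probes. Without KI 1 the smallest adjusted p among the T cell genes was 0.537 in limma. Cd4, on its predicted-transcript probe, was between 0.79 and 1.43 with a median of 0.87 in the KI-treated group and between 0.94 and 1.70 with a median of 1.11 in the control group. Its log2 change was -0.25 (SE 0.15, adjusted p = 0.447 in limma) with all arrays and -0.34 (SE 0.14) without KI 1. The curated Cd4 probe had a log2 change of 0.78, in the other direction, with an unadjusted p of 0.0816 in limma.

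**Figure D4:**
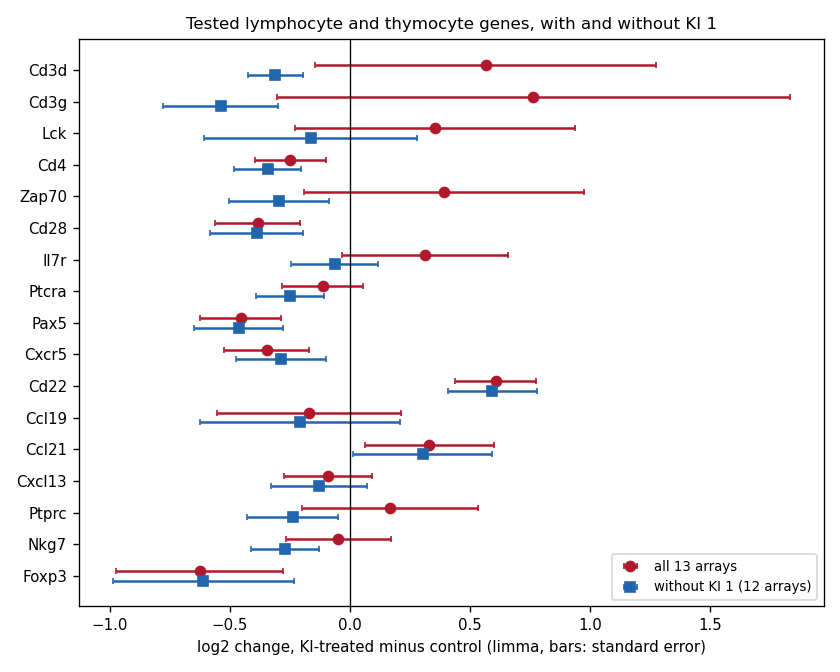
Log2 change of the KI-treated group against the control group in limma (horizontal axis) with its standard error (bars) for the 17 tested genes (rows), with all 13 arrays as circles and without KI 1 as squares. Cd3d moves from 0.57 to -0.31 and Cd3g from 0.76 to -0.54 without KI 1, whereas Pax5, Cxcr5 and Cd22 stay within 0.1 of their value.

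Of the B cell genes, 3 were tested, and their median log2 change was -0.35, or -0.29 without KI 1. Pax5 was between -1.03 and -0.77, with a median of -0.80, in the KI-treated group and between -0.87 and 0.24, with a median of -0.44, in the control group. Controls 4 and 6 were the highest, and the groups overlapped. The log2 change was -0.45 (SE 0.17, adjusted p = 0.359 in limma), with p = 0.0134 in the exact permutation test. Within the 5 slides that held both groups, Pax5 was lower in the KI-treated arrays on all 5, by -0.02 to -1.03. The largest differences, -1.03 and -0.90, were on the slides of control 4 and control 6. How many of all probes were lower on all 5 slides was not counted. Cxcr5 had a log2 change of -0.35 (SE 0.18, adjusted p = 0.411 in limma), from a predicted-transcript probe. The curated Cxcr5 probe was well above background on 3 KI-treated arrays and 0 controls, and was not tested. Its mean was -4.535 in the KI-treated group and -5.201 in the control group, the other direction.

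Cd22, an inhibitory receptor of B cells, had the smallest p among the 17 tested genes. It was between 1.97 and 2.29, with a median of 2.14, in the KI-treated group and between 0.89 and 2.01, with a median of 1.63, in the control group. KI 4 and KI 5 lay below control 1, the highest control, and the other 4 KI-treated arrays lay above all controls. The log2 change was 0.61 (SE 0.17, adjusted p = 0.342 in limma), with p = 0.00466 in the exact permutation test. Within the 5 slides that held both groups, it was higher in the KI-treated arrays on 4, and the difference lay between -0.0018 and 1.37. This level comes from a predicted-transcript probe as well. The 2 probes from the curated Cd22 transcript were well above background on 4 arrays and on none, and were not tested.

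The choice of the brightest probe decided what was read for several of these genes. Of the 7 genes with more than 1 probe, 5 had their brightest probe from a predicted transcript and the others from a curated one, namely Cd4, Cd28, Il7r, Cxcr5 and Cd22. The last 30 bases of such probes are shown because several hold AATAAA, the usual polyadenylation signal, or a run of a repeated pair of letters, both in capitals.
Cd4, predicted, chr4:160987322-160987381: caggaaAATAAAggctataAATAAAatgca
Cxcr5, predicted, chr8:47483699-47483758: acaagcctaaaaagtgtttcaaAATAAAaa
Il7r, predicted, chr2:59102179-59102238: tggtcataatttcttcAATAAAtgcactga
Cd22, predicted, chr1:85922811-85922870: tcatcatgtgaaatagccaatcatatgtga
Cd28, predicted, chr9:59369623-59369682: gggttcCTCTCTCTCTCTCTCTCTCTCTCT
Cd22, curated, chr1:85923782-85923841: catagaaATATATATATATATATATATATA
The coordinates are those of the whole probe. The Cd28 probe ends in 24 bases of alternating C and T, and the curated Cd22 probe in 23 bases of alternating A and T. Of the 45598 probes, 66 (0.145%) held a run of 20 bases or more of this kind. Of these 5 predicted-transcript probes, Il7r was the one with KI 1 above all other arrays, and the curated probe of Il7r was not well above background on any array. Cd28 had a log2 change of -0.38 (SE 0.18, adjusted p = 0.390 in limma), with the KI-treated arrays between 1.14 and 1.91 and the controls between 1.17 and 2.38.

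None of the chemokines and other leukocyte genes passed the test. Ccl21 had a log2 change of 0.33 (SE 0.27), Ccl19 of -0.17 (SE 0.38) and Cxcl13 of -0.09 (SE 0.18), with adjusted p between 0.536 and 0.818 in limma. Controls 4 and 6 had the highest Ccl19, at 2.23 and 2.84, and the lowest Ccl21, at 1.38 and 1.40. Foxp3 had a log2 change of -0.63 (SE 0.35, adjusted p = 0.427), with 3 arrays of each group well above background. Nkg7 was at -0.05 (SE 0.22) and Ptcra at -0.11 (SE 0.17).

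Because the T cell genes stood together on KI 1, their promoters were read for the E-box, the site of E proteins that drive lymphocyte genes, as the letters CAGCTG or CAGGTG on either strand. The sequences are from RefSeq on build GRCr8, and cover 250 bases before to 50 bases after the start of the gene, and 27 of the 35 genes matched an entry. Of these, 15 held at least 1 such site, beside 30.8% of all 33469 promoters. Among the genes well above background and at least 1 log2 unit higher on KI 1 it was 9 of 16, and among the rest 6 of 11, a like share in both. The promoters of Cd3g and Rag1 are shown for the part before the start, each with its E-boxes in capitals, since these genes led the T cell and thymocyte genes on KI 1.
Cd3g, chr8:54183919-54184168, minus strand: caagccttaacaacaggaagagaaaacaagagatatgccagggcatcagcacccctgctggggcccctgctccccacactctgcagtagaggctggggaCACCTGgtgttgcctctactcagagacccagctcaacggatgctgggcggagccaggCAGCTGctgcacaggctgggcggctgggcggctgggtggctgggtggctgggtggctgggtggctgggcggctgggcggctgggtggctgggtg
Rag1, chr3:108383185-108383434, minus strand: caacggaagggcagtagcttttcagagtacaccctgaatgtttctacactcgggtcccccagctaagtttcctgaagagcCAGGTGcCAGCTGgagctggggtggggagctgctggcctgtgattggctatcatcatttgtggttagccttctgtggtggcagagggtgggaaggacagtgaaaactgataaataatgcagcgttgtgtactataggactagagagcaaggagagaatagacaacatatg
The E-boxes of Cd3g begin 151 and 94 bases before the start, and those of Rag1 begin 170 and 163 bases before it. The starts of Cd3g and Cd3d lie 1.6 kb apart on opposite strands and point away from each other.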

How the data were processed

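The authors deposited a scanner file per array (Agilent Feature Extraction 10.7.3.1 per the file headers), whose background-subtracted intensity per spot was not normalized between arrays. A further deposited table holds log2 values for these arrays, and its normalization is not given in the sources used here. After removal of control and outlier spots, replicate spots were averaged (45598 probes) and each log2 signal was set relative to the array's 75th percentile over these probes. A probe was well above background on an array if at least 0.5 of its spots were flagged so. Probes passing on at least 6 arrays (25717) were tested with limma 3.58.1 in R 4.3.3 (lmFit, eBayes, Benjamini-Hochberg, threshold 0.05), which was tested on simulated data. For 67 of them an array without a value was dropped from the fit. Exact permutation tests (two-sided) were added for single genes. The number of arrays limits the precision. A 1 log2 unit excess of KI 1 over the median of the other 12 arrays was counted where the probe was well above background on KI 1. Named genes are all 35 members, up to 8 genes of each further list by size, and the 10 genes highest on KI 1 or most like Cd3g. Some genes that this rule names are not reported here. Members and lists were chosen with earlier results of these data known. No columns of other samples were present (0). Alternatives were quantile normalization, normexp (offset 50), the deposited values, other filters, array weights, slide, scan session and replicate number as blocks, the methods' t-test, and leaving out each array. The 75th percentile over all gene spots was added after seeing the data.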

Additional observations from a re-analysis of the deposited data

Results flagged for a closer look

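Within the 6 KI-treated or the 7 control arrays, a value was picked out where the gap of the highest or lowest array to its neighbour, as a share of the range of the group, passed the critical value of Dixon's test. Of 50 gene and group combinations, 17 were picked out, and chance picks out about 1 in 20. In 14 of them KI 1 was the highest KI-treated array. KI 1 had been singled out for its Cd3g, so that this is a description only. For Cd3e, Cd2, Cd8a, Ccr7, Themis and Rag1 the other arrays were at background. The share was 0.936 for Cd3d, 0.859 for Cd3g, 0.827 for Cd247, 0.823 for Rag1 and 0.79 for Cd8a. It was 0.785 for Zap70, 0.778 for Cd3e, 0.738 for Ccr7, 0.733 for Cd2 and 0.731 for both Il7r and Themis. It was 0.704 for Nkg7, 0.7 for Cd4 and 0.675 for Ptprc. For Cd4 the level on KI 1, 1.43, lay inside the control range of 0.94 to 1.70.

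In the other 3 a different array stood out. Cd79b, a chain of the B cell receptor, was highest on control 4 in the control group (0.857) and on KI 4 in the KI-treated group (0.744). Pax5 was lowest on KI 5 in the KI-treated group (0.72), where the other 5 arrays lay within -0.85 to -0.77.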

How the results depend on the processing

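No tested gene of the 35 passed the threshold under any of the alternatives run. The direction of the log2 change was kept under all alternatives other than leaving out an array for 15 of the 17 genes. The exceptions lay near 0, with Nkg7 at 0.0024 with the deposited values, 0.032 with the percentile over all gene spots, chosen after seeing the data, and 0.034 with array weights, and Ccl19 at 0.16 with array weights. Leaving out 1 array turned 8 genes. Without KI 1, Cd3d, Cd3g, Lck, Zap70, Il7r and Ptprc turned, with ranges over the arrays left out of -0.31 to 0.77, -0.54 to 1.15, -0.16 to 0.55, -0.29 to 0.64, -0.063 to 0.45 and -0.24 to 0.33. Nkg7 (-0.27 to 0.053) turned without KI 2, KI 6 or control 4, and Ccl19 (-0.30 to 0.086) without KI 6 or control 6. The median of the T cell genes ranged from -0.31 to 0.55 and that of the B cell genes from -0.46 to -0.26.

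The excess of KI 1 over the other arrays, as a median over the 7 tested T cell genes, was 3.09. It was 1.50 after normexp, 1.94 with the deposited values, 3.99 over all 16 genes without the filter and 1.36 over the 4 genes well above background on all 13 arrays, which leaves out Cd3g, Lck and Zap70. Over all probes the count past the threshold was 0, but 50 with array weights, and 0 to 1 when an array was left out, with 1 without control 1 and 1 without control 2. The methods' t-test gave 0 probes after Benjamini-Hochberg adjustment and 3142 at an unadjusted p under 0.05. Replicate numbers did not pair the samples, with correlations of deviations between -0.11 and 0.07. With the replicate block the median change of the T cell genes was 0.37 and that of the B cell genes -0.35, with 0 probes past the threshold.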

Other observations

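Cd79b stood apart on control 4 without the other B cell receptor chain. It was at 0.71, whereas the other 6 controls lay between -5.86 and -4.92, and the partner chain Cd79a was at -5.01 on control 4 and not well above background. Ms4a1 was not well above background on control 4 either.

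Several genes that are not known as lymphocyte genes stood high on KI 1 with the T cell genes. F2, which encodes prothrombin, was at -0.07 on KI 1 and between -3.71 and -3.02 on the other 12 arrays, and Agrp, a neuropeptide of the hypothalamus, was at 0.60 and between -2.70 and -1.62. Prrt4, Utp20 and Ceacam10 exceeded the highest of the other arrays by 3.08, 2.91 and 2.82 log2 units. These genes were named after their values were seen.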
